A study of Solanum tuberosum with 8 samples.

Results

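Cut potato tubers of the lines D6 and X2 were compared in how their RNA levels changed between 4 and 12 h after wounding. The libraries were RNA-Seq libraries of tuber tissue taken at 4 or 12 h, with 3 per line and hour: D6 at 12 h, D6 at 4 h, X2 at 12 h and X2 at 4 h, together 12 of the 21 libraries matched to a sample in the series. X2 is the tetraploid cultivar Xingjia 2, whose tubers were cut across and kept in warm, humid air, and each of its replicates mixed tissue from 3 tubers taken from the skin to the pith. D6 is given only by its name, tissue and hour, so its origin, its storage and the number of tubers behind a replicate are not stated in the sources used here. Every library at 4 and 12 h came from cut tubers, and no uncut tubers of those hours were analysed here. A gene was included by rule when its mean level over the 12 libraries reached 0.5 FPKM (reads scaled by gene length and by library depth), which held for 19812 of the 42667 genes in the table. The measure was the line-by-time interaction, the change in D6 between 4 and 12 h minus the same change in X2, on the log2(FPKM + 0.1) scale. A positive value means that the change was more upward in D6 than in X2, and a negative value that it was more downward. All fold changes below are on this scale, which understates the change of genes with low FPKM. An interaction is a difference between changes, so the added constant can make it smaller or larger.

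A cut potato tuber closes its wound in stages. Within hours the cells near the cut make reactive oxygen, jasmonate and a burst of phenylpropanoids, the phenolic compounds that start from phenylalanine, and polyphenol oxidases turn some of them brown. The walls of the outer cells are then loosened, rebuilt and filled with suberin, a polyester of fatty acyl chains and phenolics laid down with waxes, and cells below the wound re-enter the cell cycle to form a wound periderm.

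The 12 libraries held between 24226307 and 44921591 reads on genes, with D6 at 4 h the shallowest group. Replicates of a group correlated at Pearson's r = 0.978 to 0.988 in D6 and 0.989 to 0.994 in X2 across genes on the log2(FPKM + 1) scale. The median SD of a gene between replicates was 0.179 at 12 h and 0.204 at 4 h in D6 and 0.124 at 12 h and 0.129 at 4 h in X2, so D6 was the more variable line. Patatin, the main storage protein of tubers, was represented by 1 described gene (Patatin-3-Kuras 1, PGSC0003DMG401017090), which stood at 11.8 FPKM in the single D6 library at 0 h and at 21.8, 29.1 and 6.02 FPKM in X2 at 0 h.

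The 4-to-12 h change differed between the lines for 1322 genes, 6.67% of those tested. They were called at an absolute log2 difference of at least 1 and a limma p of at most 0.01, and 1151 of them also had a Benjamini-Hochberg adjusted p of at most 0.05 (largest adjusted p of a call, 0.0671). The interaction was negative for 838 genes (4.23%) and positive for 484 (2.44%), while its median over all genes tested was 0.06. Between 4 and 12 h, D6 itself had 5604 called genes (28.3%), of which 3058 (15.4%) were higher and 2546 (12.9%) were lower at 12 h. X2 had 4466 (22.5%), with 2532 (12.8%) higher and 1934 (9.76%) lower at 12 h. In bulk tissue, fewer cells of a type and less RNA per cell cannot be told apart, and this holds for every difference given here.

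**Figure D1:**
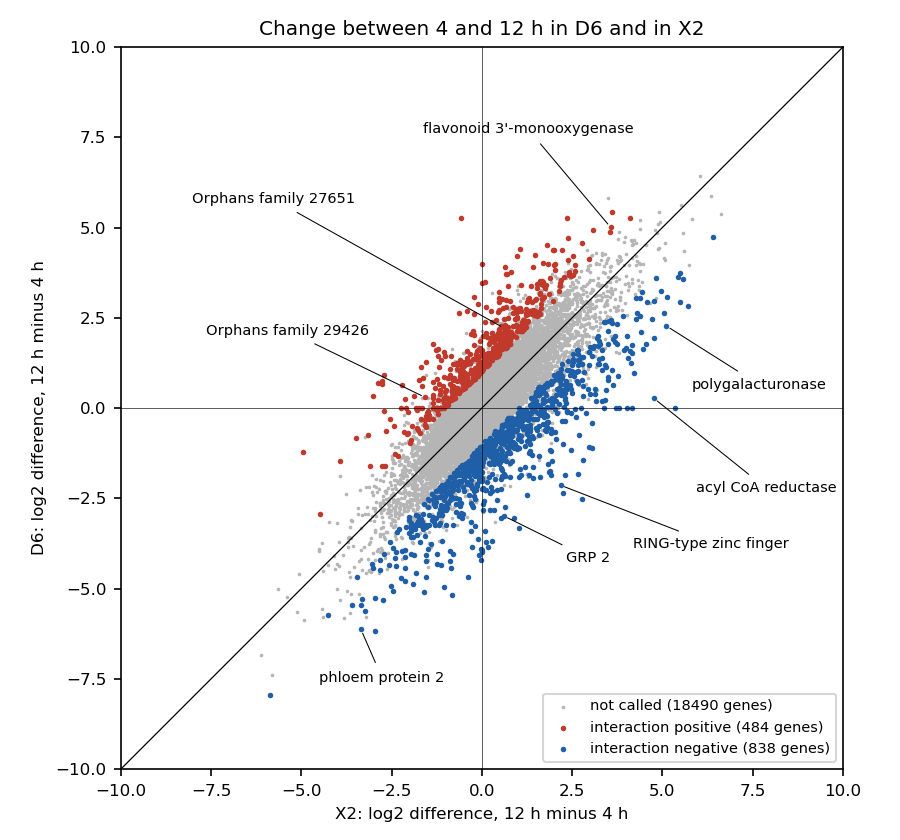
Change between 4 and 12 h in X2 (horizontal axis) and in D6 (vertical axis), both as log2 differences of FPKM + 0.1 (12 h minus 4 h), with 1 point per gene tested. The 484 genes with a positive interaction (red) lie above the diagonal of equal change and the 838 with a negative interaction (blue) below it, and grey points are the 18490 genes not called.

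Most of the negative interactions came from genes whose change was called in 1 line only. Of the 838 genes, 291 were lower at 12 h in D6 and not called in X2, and 219 were higher at 12 h in X2 and not called in D6. Both lines fell for 117 genes, both rose for 86, and neither change was called for 113. The positive interactions were led by 227 genes that rose in D6 and were not called in X2, followed by 92 that rose in both lines, 73 that fell in X2 and were not called in D6, 8 that fell in both and 80 with neither change called. Only 16 genes were called in opposite directions in the lines, 12 of them lower at 12 h in D6 and higher at 12 h in X2.

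The lines stood apart at 4 h more often than at 12 h. At 4 h, 3671 genes differed between D6 and X2 (18.5%), 1942 higher (9.8%) and 1729 lower (8.73%) in D6, against 2475 genes at 12 h (12.5%), 1254 higher (6.33%) and 1221 lower (6.16%) in D6. Among the 838 genes with a negative interaction, 408 were higher in D6 at 4 h and not called at 12 h, 116 were higher in D6 at both hours, and 129 were not called at 4 h and lower in D6 at 12 h. A further 38 were lower in D6 at both hours, 8 were higher in D6 at 4 h and lower at 12 h, and 139 were called at neither hour. Among the 484 with a positive interaction, 227 were lower in D6 at 4 h and not called at 12 h, 56 were lower in D6 at both hours, and 78 were not called at 4 h and higher in D6 at 12 h. Another 27 were higher in D6 at both hours, 5 were lower at 4 h and higher at 12 h, and 91 were called at neither. The median log2 difference between D6 and X2 over all genes tested was -0.16 at 4 h. With median-of-ratios size factors this median was -0.01 and 62.8% of the calls at 4 h were higher in D6, against 52.9% in FPKM, and with counts in limma-voom 63.2%.

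**Figure D2:**
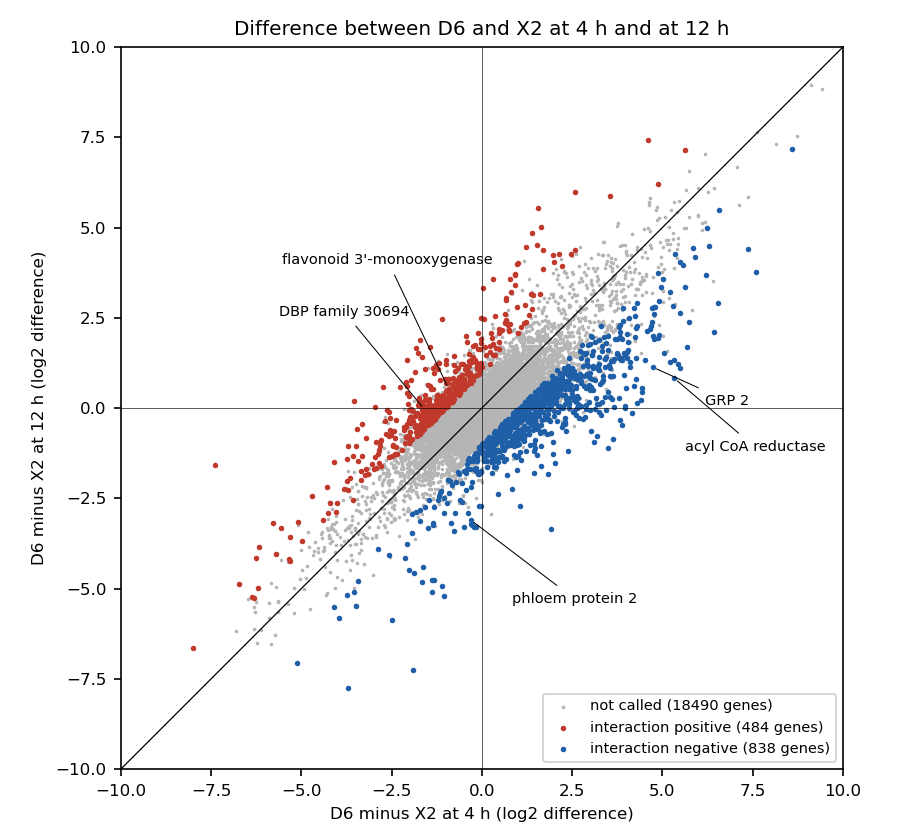
Difference between D6 and X2 at 4 h (horizontal axis) and at 12 h (vertical axis), as log2 differences of FPKM + 0.1 (D6 minus X2), with 1 point per gene tested. Blue points (negative interaction, 838 genes) fall mostly right of 0 at 4 h and nearer to 0 at 12 h, and red points (positive interaction, 484 genes) mostly left of 0 at 4 h.

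For the 408 genes higher in D6 at 4 h alone, the median gene stood at 3.26 FPKM in D6 at 12 h and 6.91 FPKM in D6 at 4 h, against 2.84 FPKM in X2 at 12 h and 1.54 FPKM in X2 at 4 h. At 0 h their medians were 1.10 FPKM in D6 (1 library) and 0.465 FPKM in X2. For the 227 genes lower in D6 at 4 h alone, the median gene had 4.97 FPKM in D6 at 12 h and 1.76 FPKM in D6 at 4 h, and in X2 5.71 FPKM at 12 h and 5.13 FPKM at 4 h. These classes were chosen on the same libraries, so their medians are a description.

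The 24 h libraries (3 of D6 and 2 of X2) took no part in these calls. There, D6 and X2 differed for 11.4% of all genes tested, with 1172 of 19812 higher and 1081 lower in D6. They differed for 26.7% of the genes with a positive interaction and 32.2% of those with a negative one. Of the 408 genes higher in D6 at 4 h alone, 22.3% were called at 24 h, 74 higher and 17 lower in D6. Of the 227 lower in D6 at 4 h alone, 7.93% were called, 17 lower and 1 higher in D6. A difference at both 4 and 12 h was more often present at 24 h, for 81 of the 116 genes higher in D6 at both hours and for 43 of the 56 lower in D6 at both, called in the same direction. Of the 129 genes that were lower in D6 at 12 h alone, 44 were lower at 24 h, and of the 78 that were higher in D6 at 12 h alone, 35 were higher at 24 h. Genes apart at the same hours without an interaction were not counted at 24 h.

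Only a part of the genes could be described. Of the 1322 called genes, 541 had an adjusted p of at most 0.05 and a mean of at least 5 FPKM, and 71 of these carried a functional description, 53 with a negative and 18 with a positive interaction. The 10 with the largest interaction in each direction are given below with the value in every library. Descriptions were taken from the study's own tables, which were chosen on X2 samples, so the gene lists used here are not independent evidence of a direction in X2.

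Acyl CoA reductase and a laccase were among the 10 largest negative interactions of described genes of at least 5 FPKM, both higher in D6 at 4 h. Acyl CoA reductase (PGSC0003DMG400007405), of a family that reduces fatty acyl chains to the alcohols of suberin and wax, had 11.4, 35.3 and 24.1 FPKM at 12 h and 8.66, 39.2 and 16.2 FPKM at 4 h in D6, against 26.1, 9.67 and 6.76 FPKM at 12 h and 1.23, 0.235 and 0.0952 FPKM at 4 h in X2. The groups of D6 overlapped and the groups of X2 did not. Its change was 0.27 in D6, not called, and 4.77 in X2, an interaction of -4.50 (standard error 1.07, adjusted p = 0.0209). Laccase (PGSC0003DMG400000684), of the copper oxidases that couple phenolics in the wall, had 15.8, 37.8 and 23.9 FPKM at 12 h and 8.63, 22.9 and 11.6 FPKM at 4 h in D6, against 14.7, 7.28 and 7.54 FPKM at 12 h and 0.770, 0.637 and 0.408 FPKM at 4 h in X2. Here the interaction was -2.90 (standard error 0.58, adjusted p = 0.0096). The D6 levels overlapped between the hours here too, while X2 was below 1 FPKM in every library at 4 h and above 7 FPKM at 12 h. A non-specific lipid-transfer protein (PGSC0003DMG402016309), of a group that carries lipids outside the cell, had 44.5, 91.0 and 44.2 FPKM at 12 h and 12.3, 32.6 and 12.0 FPKM at 4 h in D6, against 22.7, 12.0 and 7.42 FPKM at 12 h and 1.26, 0.324 and 0.543 FPKM at 4 h in X2, so that it rose in both lines by 1.73 in D6 and by 4.15 in X2, with an interaction of -2.41 (standard error 0.75, adjusted p = 0.0572). It was picked after its values were seen, as the called list members outside the naming rule are below.

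For acyl CoA reductase, laccase and the lipid-transfer protein, replicate 2 was the highest of the D6 libraries at 4, 12 and 24 h. Replicate 1 was the highest of the X2 libraries for these genes at 4 and 12 h, and not at 24 h. Leaving out each library in turn, the interaction of acyl CoA reductase ranged between -5.29 and -3.91 and that of laccase between -3.22 and -2.5, both called each time. The call of the lipid-transfer protein was lost without D6 at 12 h replicates 1 and 3, D6 at 4 h replicate 2, X2 at 12 h replicates 1 and 2 or X2 at 4 h replicates 2 and 3 (between -2.88 and -1.94 with 1 library left out). Acyl CoA reductase was not called with counts in limma-voom (adjusted p = 0.124, interaction -5.08). In the cutin, suberine and wax list, acyl CoA reductase and a sterol desaturase (PGSC0003DMG401023841) had a negative interaction, 2 of 3 genes tested against 4.23% of all genes, and with limma-voom 0 were called. This desaturase had 0 reads in D6 at 4 h and 3 reads in D6 at 12 h, against 2.97, 2.13 and 5.26 FPKM at 12 h and 0.107, 0.402 and 0.201 FPKM at 4 h in X2. The remaining member, also a sterol desaturase (PGSC0003DMG402023841), had 0.0626, 0.434 and 0.480 FPKM at 12 h and 0.212, 0.0310 and 0.0725 FPKM at 4 h in D6, against 11.8, 14.96 and 23.5 FPKM at 12 h and 2.83, 1.8 and 1.77 FPKM at 4 h in X2, with an interaction of -1.94 that was not called (standard error 0.68, adjusted p = 0.0867). Unlike acyl CoA reductase, both desaturases were called lower in D6 at 4 h. The sum of the 3 described periderm and suberin markers (both suberization-associated anionic peroxidases and acyl CoA reductase) was 57.5 to 69.4 FPKM at 12 h and 117 to 160.1 FPKM at 4 h in D6, and 21.4 to 37.4 FPKM at 12 h and 11.9 to 19.2 FPKM at 4 h in X2. Suberization-associated anionic peroxidase 2 (PGSC0003DMG400022341), the highest of them at 4 h in both lines, fell in both (-1.95 in D6 and -1.74 in X2). Its interaction of -0.20 was not called, nor was that of the other peroxidase (PGSC0003DMG400022342, -1.02). Of the 3 markers, acyl CoA reductase alone had a called interaction. None of the 3 averaged under 0.1 FPKM in any group, and the part of a larger share of skin-side tissue in these results was not tested.

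**Figure D3:**
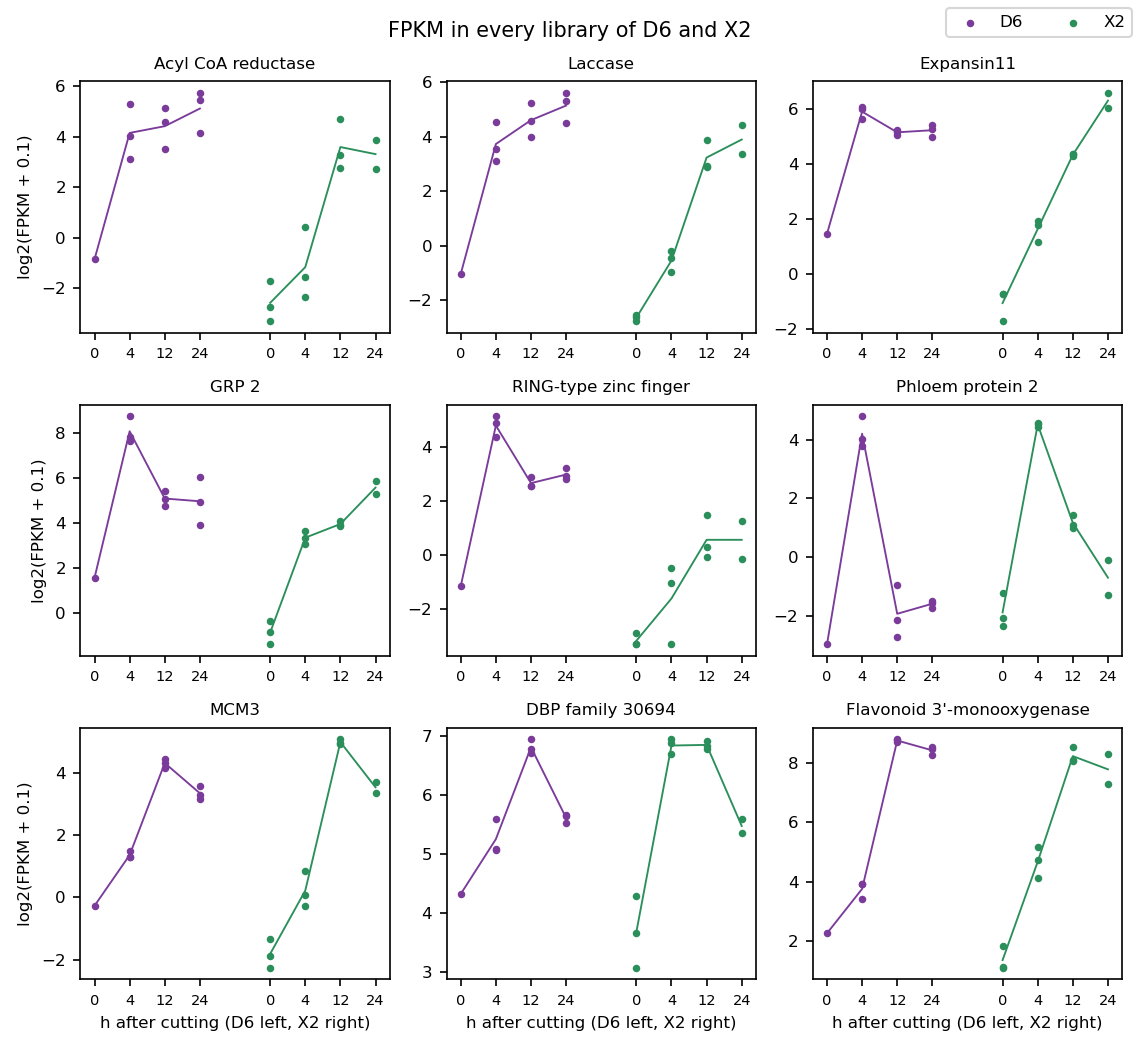
Level of 9 named genes in every library as log2(FPKM + 0.1) (vertical axis), by hours after cutting, with D6 on the left and X2 on the right of each panel. Points are libraries and lines join the group means, and acyl CoA reductase, laccase and Expansin11 were low in X2 at 4 h and not in D6.

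Expansins and an inhibitor of xyloglucan-cutting enzymes also had negative interactions. Expansin11 (PGSC0003DMG400009951), of the proteins that let cellulose and xyloglucan slide, had 32.5, 37.2 and 35.6 FPKM at 12 h and 66.2, 63.7 and 48.8 FPKM at 4 h in D6, against 20.3, 19.1 and 20.2 FPKM at 12 h and 3.70, 2.15 and 3.33 FPKM at 4 h in X2. Its groups did not overlap in either line, yet only the rise in X2 was called (2.70), since the change in D6 was -0.75, and the interaction was -3.44 (standard error 0.24, adjusted p = 8.18e-05). An expansin (PGSC0003DMG400023815) had 110.1, 105 and 109 FPKM at 12 h and 155, 153 and 111 FPKM at 4 h in D6, against 56.9, 55.5 and 63.5 FPKM at 12 h and 12.6, 9.64 and 13.4 FPKM at 4 h in X2. This gave an interaction of -2.66 (standard error 0.20, adjusted p = 8.18e-05). Another (PGSC0003DMG400001426) had 56.1, 36.8 and 37.6 FPKM at 12 h and 12.5, 23.4 and 22.3 FPKM at 4 h in D6, against 26.8, 26.4 and 31.1 FPKM at 12 h and 3.64, 1.89 and 2.42 FPKM at 4 h in X2, so it rose in both lines, more so in X2 (3.40 against 1.19 in D6). The xyloglucanase inhibitor (PGSC0003DMG400008978), of plant proteins that block enzymes cutting xyloglucan, had 8.63, 9.51 and 6.44 FPKM at 12 h and 34.4, 11.6 and 13.9 FPKM at 4 h in D6, against 11.6, 6.22 and 5.55 FPKM at 12 h and 0.391, 0.969 and 1.30 FPKM at 4 h in X2. It rose in X2, its change in D6 (-1.12) was not called, and the interaction was -4.17 (standard error 0.64, adjusted p = 0.00285). These were the 4 genes called among the 7 tested of the expansin and xyloglucan list, all negative, against 4.23% of all genes tested, and the median interaction of the list was -2.21 against 0.06 for all genes.

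Pectin enzymes, which cut the polymer that glues cells together, were split. Of 11 tested, 3 had a negative and 0 a positive interaction, against 4.23% and 2.44% of all genes, and the median was 0.12. Of the 11, 9 rose in D6, against 15.4% of all genes, and 10 rose in X2, against 12.8%. Polygalacturonase QRT3 (PGSC0003DMG400009418), named after an Arabidopsis enzyme of pollen separation, had 25.1, 49.9 and 44.6 FPKM at 12 h and 8.11, 30.3 and 17.0 FPKM at 4 h in D6, against 46.7, 27.5 and 23.7 FPKM at 12 h and 4.00, 0.884 and 1.36 FPKM at 4 h in X2. Its interaction stood at -2.88 (standard error 0.77, adjusted p = 0.0344). Its D6 groups overlapped at 1 library. A polygalacturonase (PGSC0003DMG400013516) had 53.7, 45.1 and 11.7 FPKM at 12 h and 4.83, 5.12 and 9.84 FPKM at 4 h in D6, against 4.17, 7.95 and 3.33 FPKM at 12 h and 0.122, 0.0135 and 0.0128 FPKM at 4 h in X2. Its X2 level at 4 h rested on 12 reads in the 3 libraries, and the interaction of -2.84 (standard error 0.77, adjusted p = 0.035) was -0.35 and no longer called with 1 in place of 0.1 added to the FPKM. Pectate lyase P18 (PGSC0003DMG400012640) had 84.3, 67.0 and 62.0 FPKM at 12 h and 24.3, 25.7 and 22.6 FPKM at 4 h in D6, against 38.4, 39.4 and 45.7 FPKM at 12 h and 5.37, 4.10 and 6.31 FPKM at 4 h in X2, so its groups were separate in both lines and it rose by 1.54 in D6 and by 2.96 in X2, with an interaction of -1.42 (standard error 0.21, adjusted p = 0.00263).

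A few other genes were lower at 12 h than at 4 h in D6 and not in X2. GRP 2 (PGSC0003DMG400024627), given only by that name, had 33.8, 43.1 and 26.6 FPKM at 12 h and 200.1, 430.0 and 228 FPKM at 4 h in D6, against 16.9, 14.3 and 15.1 FPKM at 12 h and 12.4, 8.34 and 9.85 FPKM at 4 h in X2. It fell by 2.99 in D6 and was not called in X2 (0.61), with an interaction of -3.60 (standard error 0.37, adjusted p = 0.000431), and all D6 libraries at 4 h were above all other libraries. The RING-type zinc finger (PGSC0003DMG400024061), a domain found in many ubiquitin ligases, had 5.82, 5.79 and 7.25 FPKM at 12 h and 20.6, 29.6 and 35.5 FPKM at 4 h in D6, against 2.71, 1.11 and 0.845 FPKM at 12 h and 0.610, 0 and 0.390 FPKM at 4 h in X2. It was called lower at 12 h in D6 (-2.14) and higher at 12 h in X2 (2.18), an interaction of -4.32 (standard error 0.86, adjusted p = 0.00986), and its X2 libraries at 4 h held 29 reads in all. A gene of the homeobox family HB (PGSC0003DMG400026264) had 4.64, 4.23 and 4.51 FPKM at 12 h and 13.3, 8.96 and 7.57 FPKM at 4 h in D6, against 5.09, 7.07 and 8.61 FPKM at 12 h and 3.36, 2.94 and 3.60 FPKM at 4 h in X2, again with opposite calls (-1.10 in D6 and 1.02 in X2) and no overlap within either line, and its interaction was -2.12 (standard error 0.30, adjusted p = 0.00196). At 0 h it had stood higher, at 28.2 FPKM in the D6 library and at 31.1, 27.1 and 23.8 FPKM in X2. The RING-type and HB genes were the only described genes of sufficient level among the 16 called in opposite directions.

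Phloem protein 2 (PGSC0003DMG400010357), a lectin of the phloem, fell in both lines and further in D6. It had 0.422, 0.0520 and 0.128 FPKM at 12 h and 27.8, 13.7 and 16.1 FPKM at 4 h in D6, against 1.87, 2.02 and 2.60 FPKM at 12 h and 23.2, 21.6 and 23.6 FPKM at 4 h in X2, so at 4 h the lines overlapped and at 12 h they did not. Protein RSI-1 (PGSC0003DMG402015689), named after an auxin-induced tomato gene of lateral root initiation, had 80.2, 99.7 and 59.5 FPKM at 12 h and 71.9, 58.8 and 39.3 FPKM at 4 h in D6, against 19.6, 19.4 and 22.0 FPKM at 12 h and 2.32, 1.31 and 1.81 FPKM at 4 h in X2. The D6 groups overlapped and the X2 groups did not, with interactions of -2.78 (standard error 0.53, adjusted p = 0.00823) for phloem protein 2 and -2.94 (standard error 0.35, adjusted p = 0.000757) for RSI-1.

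DNA replication genes rose in both lines, and 3 of 5 rose less in D6. All 5 tested genes of the list were called higher at 12 h in each line, against 15.4% of all genes in D6 and 12.8% in X2. A negative interaction was found for 3 of the 5, against 4.23% of all genes, and a positive one for none, and the median interaction was -1.71. The list was chosen on strong changes in X2, so these values are a description. With 1 library left out, 3 to 5 of them were called negative. MCM3 (PGSC0003DMG400008308), a subunit of the helicase that opens DNA for copying, had 21.9, 17.7 and 19.95 FPKM at 12 h and 2.69, 2.35 and 2.38 FPKM at 4 h in D6, against 31.2, 30.1 and 33.6 FPKM at 12 h and 1.69, 0.730 and 0.958 FPKM at 4 h in X2. It rose by 2.95 in D6 and by 4.77 in X2, an interaction of -1.82 (standard error 0.31, adjusted p = 0.00451). At 4 h it was higher in D6 (log2 difference 1.14), and at 12 h it was lower by a margin that was not called (-0.67). Its partner MCM5 (PGSC0003DMG400011837) had 19.1, 16.8 and 18.8 FPKM at 12 h and 4.70, 6.25 and 6.18 FPKM at 4 h in D6, against 30.9, 33.9 and 37.3 FPKM at 12 h and 4.99, 3.33 and 3.65 FPKM at 4 h in X2. The resulting interaction was -1.41 (standard error 0.22, adjusted p = 0.00294). The 12 h levels of D6 were below those of X2 in every library, while those at 4 h overlapped. Replication factor A (PGSC0003DMG403013782), which coats unpaired DNA, had 15.7, 14.8 and 13.6 FPKM at 12 h and 0.922, 1.71 and 1.94 FPKM at 4 h in D6, against 22.2, 19.3 and 25 FPKM at 12 h and 1.04, 0.486 and 0.446 FPKM at 4 h in X2. The interaction was -1.71 (standard error 0.41, adjusted p = 0.0228).

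The wider cell division list had 9 negative and 0 positive interactions among 17 tested genes, against 4.23% and 2.44% of all genes, and a median of -1.24. With limma-voom 6 were negative. It shares MCM3, MCM5 and Replication factor A with the replication list. The largest was the cell division cycle protein cdt2 (PGSC0003DMG400012630), which in animals and fission yeast helps to remove a licensing factor so that DNA is copied once, with 4.55, 3.33 and 3.90 FPKM at 12 h and 0.905, 1.01 and 0.630 FPKM at 4 h in D6, against 6.13, 5.95 and 6.92 FPKM at 12 h and 0.160, 0.214 and 0.246 FPKM at 4 h in X2. Here the interaction was -2.30 (standard error 0.29, adjusted p = 0.00102). The others were subunit 6 of the origin recognition complex (-2.0 (standard error 0.64, adjusted p = 0.0624)), subunit 4 (-1.56 (standard error 0.34, adjusted p = 0.015)), the minichromosome maintenance protein 10 (-1.16 (standard error 0.33, adjusted p = 0.0428)), a predicted cyclin-A3-1-like gene (-1.8 (standard error 0.54, adjusted p = 0.0499)) and cyclin A, for which no fold change is given. Of these, the calls of both cyclins and of subunit 6 rested on low X2 levels at 4 h, with 2, 15 and 34 reads over 3 libraries. Subunit 6 was called under 8 of the 22 alternative settings only. In the list as a whole 13 genes rose in D6 and 14 in X2, against 15.4% and 12.8% of all genes. D6 was higher for 6 at 4 h and for 1 at 12 h, against 9.8% and 6.33% of all genes.

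Histones did not share this pattern. All 12 tested histone genes rose in both lines, against 15.4% of all genes in D6 and 12.8% in X2. Their median interaction was 0.12, and 1 was called in each direction, against 4.23% negative and 2.44% positive of all genes. Histone H3.2 (PGSC0003DMG400032112) had 26.7, 17.9 and 17.8 FPKM at 12 h and 1.8, 1.53 and 1.40 FPKM at 4 h in D6, against 26.4, 29.3 and 28.4 FPKM at 12 h and 1.15, 0.348 and 0.385 FPKM at 4 h in X2. This gave an interaction of -1.82 (standard error 0.45, adjusted p = 0.0254). A histone H4 (PGSC0003DMG400023522) had 7.10, 5.28 and 4.91 FPKM at 12 h in D6 and 0.961, 1.22 and 1.75 FPKM at 12 h in X2, but its 4 h libraries held 2 reads in D6 and 1 read in X2, so its positive call is no measure of a fold change. Histone genes are near-identical copies, and reads may be divided between them in a way that cannot be seen here.

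The flavonoid list was the one pathway list with positive calls alone, 3 of 7 tested genes, against 2.44% of all genes, and none negative (median 0.43). With limma-voom 1 was positive. With 1 library left out, 1 to 3 were positive and 0 or 1 negative. Flavonoid 3'-monooxygenase (PGSC0003DMG400024643), which adds a hydroxyl group to the flavonoid ring, had 441, 447 and 418 FPKM at 12 h and 15.0, 15.2 and 10.5 FPKM at 4 h in D6, against 377, 274 and 267 FPKM at 12 h and 17.2, 26.6 and 36.1 FPKM at 4 h in X2. It rose strongly in both lines, by 5.01 in D6 and 3.56 in X2, with an interaction of 1.45 (standard error 0.33, adjusted p = 0.0178), and neither the 4 h nor the 12 h difference between the lines was called. Chalcone synthase 1B (PGSC0003DMG400029620), the first enzyme of the pathway, had 992, 1168 and 872 FPKM at 12 h and 31.8, 33.4 and 16.3 FPKM at 4 h in D6, against 639.8, 501 and 499 FPKM at 12 h and 23.7, 31.4 and 42.0 FPKM at 4 h in X2. Its interaction stood at 1.17 (standard error 0.37, adjusted p = 0.064). The call was lost without D6 at 12 h replicates 1, 2 and 3, D6 at 4 h replicate 3, X2 at 12 h replicates 2 and 3 or X2 at 4 h replicates 2 and 3 (between 0.84 and 1.37 with 1 library left out). A second gene of the same description (PGSC0003DMG400029621) stood at 1.36, 3.03 and 1.21 FPKM at 12 h in D6 and 0.322, 0.117 and 0.269 FPKM at 12 h in X2, with 4 and 5 reads at 4 h. Chalcone synthases are a family of close copies, so the split of reads between these genes is uncertain.

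Among 10 genes for phenylalanine ammonia-lyase, which opens the phenylpropanoid pathway, limma called 0 in the interaction, 3 had an unadjusted p of at most 0.05, limma-voom on counts called 1, and their median was -0.05. The most abundant of them (PGSC0003DMG400031365) had 451, 381 and 376 FPKM at 12 h and 284, 337 and 307 FPKM at 4 h in D6, against 320.4, 297 and 288 FPKM at 12 h and 97.0, 118 and 139 FPKM at 4 h in X2. It rose in X2 (1.37) and not by a call in D6 (0.38), and its interaction of -0.99 (standard error 0.18, adjusted p = 0.00577) lay just short of the threshold of 1. The 95% interval of that interaction ran between -1.38 and -0.61. A close neighbour in behaviour, PGSC0003DMG400023458, had an interaction of -0.85 (standard error 0.22, adjusted p = 0.0306), while the other 8 ranged between -1.05 and 0.32. The -1.05 was that of the predicted gene Novel01899 (chromosome 3, 5474232 to 5514347, minus strand). It overlaps the predicted Novel01736 (5473481 to 5514106) on the plus strand, and whether these are separate genes was not tested. Genes of this family are near-identical copies, and the division of reads between them is uncertain.

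The phenylpropanoid list of 12 tested genes had a median of -0.96 with 1 call each way, against 4.23% negative and 2.44% positive of all genes. Sinapyl alcohol dehydrogenase 2 (PGSC0003DMG400016114), of the enzymes that make lignin alcohols, had 3.75, 7.44 and 3.66 FPKM at 12 h and 5.45, 6.96 and 9.58 FPKM at 4 h in D6, against 0.726, 0.729 and 1.05 FPKM at 12 h and 0.611, 0.101 and 0.0480 FPKM at 4 h in X2. All D6 libraries were above all X2 libraries at either hour, X2 rose (1.74), D6 was not called, and the interaction was -2.34 (standard error 0.70, adjusted p = 0.0513). Anthocyanidin 3-O-glucosyltransferase 5 (PGSC0003DMG400012658), also in the glycosyltransferase list, went the other way with 2.29, 5.0 and 2.47 FPKM at 12 h and 0.364, 0.147 and 0.167 FPKM at 4 h in D6, against 0.282, 0.205 and 0.271 FPKM at 12 h and 0.0226, 0.0501 and 0 FPKM at 4 h in X2. The resulting interaction was 1.82 (standard error 0.50, adjusted p = 0.0382), on 6 reads in X2 at 4 h, and was 0.54 with 0.01 added to the FPKM and 0.17 with limma-voom, called in neither. Of 11 glycosyltransferases, 3 others had a negative interaction, against 4.23% of all genes, and with limma-voom 1 did. They were PGSC0003DMG400008600 (-2.31 (standard error 0.58, adjusted p = 0.0262)), PGSC0003DMG400011972 (-1.67 (standard error 0.34, adjusted p = 0.0113)) and PGSC0003DMG400009411, which had 3 reads in D6 at 4 h. That of PGSC0003DMG400008600 was -1.18 with 0.01 added to the FPKM and -0.65 with limma-voom, called in neither.

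Polyphenol oxidases, the enzymes of browning, were higher in D6 at both hours for all 5 genes tested, against 9.8% of all genes at 4 h and 6.33% at 12 h. An interaction was called for 1 of the 5, a negative one, against 4.23% of all genes. All 5 interactions lay below 0 in the main fit, with a median of -0.85. The called gene, PGSC0003DMG400018914, had 112, 129.9 and 133 FPKM at 12 h and 175, 265 and 258 FPKM at 4 h in D6, against 26.0, 32.4 and 37.3 FPKM at 12 h and 34.5, 21.3 and 28.0 FPKM at 4 h in X2. Its D6 libraries at 4 h were above those at 12 h, the X2 groups overlapped, neither change was called, and the interaction was -1.08 (standard error 0.28, adjusted p = 0.0294). Catechol oxidase B (PGSC0003DMG400029575) had 296, 301 and 279.6 FPKM at 12 h and 84.4, 138 and 115 FPKM at 4 h in D6, against 124, 148 and 152 FPKM at 12 h and 26.1, 26.2 and 35 FPKM at 4 h in X2. It rose in both lines, by 1.41 in D6 and 2.28 in X2, and its interaction was not called at -0.88 (standard error 0.23, adjusted p = 0.0331). The remaining members, PGSC0003DMG400018916, PGSC0003DMG400018917 and PGSC0003DMG400029576, had interactions of -0.20, -0.85 and -0.23, none called. Close copies exist in this family as well.

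Among enzymes that make or remove reactive oxygen, limma called no interaction in 6 respiratory burst oxidases, 3 catalases or 3 superoxide dismutases. An unadjusted p of at most 0.05 was reached by 4 of the oxidases, 0 catalases and 2 dismutases, and limma-voom called 1 oxidase and none of the others. The oxidases, which make superoxide at the cell surface, had a median of -0.95 and all 6 lay below 0. Homolog B (PGSC0003DMG400024754) had 1.43, 5.87 and 1.25 FPKM at 12 h and 26.5, 3.16 and 12.7 FPKM at 4 h in D6, against 2.57, 1.74 and 1.48 FPKM at 12 h and 1.75, 0.676 and 0.965 FPKM at 4 h in X2, with a wide spread in D6 at 4 h, and its interaction of -2.95 (standard error 1.01, adjusted p = 0.0803) was not called. The predicted NADPH oxidase Novel03252 had 11.2, 22.1 and 15.6 FPKM at 12 h and 12.6, 18.0 and 8.30 FPKM at 4 h in D6, against 9.26, 7.02 and 6.65 FPKM at 12 h and 2.54, 2.08 and 4.36 FPKM at 4 h in X2, called higher at 12 h in X2 alone, with an interaction of -1.03 (standard error 0.46, adjusted p = 0.169). The others were PGSC0003DMG400012316 (-0.99), Novel02552 (-0.91), Novel02721 (-0.21) and PGSC0003DMG400014168 (-0.06).

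The catalases, which break down hydrogen peroxide, were PGSC0003DMG400029408 (0.28), catalase isozyme 2 (PGSC0003DMG400001570, 0.28) and catalase isozyme 3 (PGSC0003DMG400009906, -0.22). The catalase PGSC0003DMG400029408 was lower in D6 at both hours, with 214, 188 and 301 FPKM at 12 h and 107, 76.2 and 125 FPKM at 4 h in D6, against 713, 651 and 736 FPKM at 12 h and 391, 385 and 346 FPKM at 4 h in X2. Superoxide dismutases, which turn superoxide into peroxide, gave 0.50 for PGSC0003DMG400005247, 0.09 for the mitochondrial PGSC0003DMG400016647 and 0.33 for PGSC0003DMG400027577. Of 33 peroxidases, 1 was called, against 6.67% of all genes, with a median of -0.21. This was PGSC0003DMG400005062, with 12.8, 15.2 and 15.7 FPKM at 12 h and 12.6, 16.1 and 17.4 FPKM at 4 h in D6, against 10.5, 9.27 and 9.95 FPKM at 12 h and 3.41, 3.22 and 3.86 FPKM at 4 h in X2. It was not called in D6 (-0.07) and rose in X2 (1.48), and its interaction was -1.55 (standard error 0.18, adjusted p = 0.00079).

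**Figure D4:**
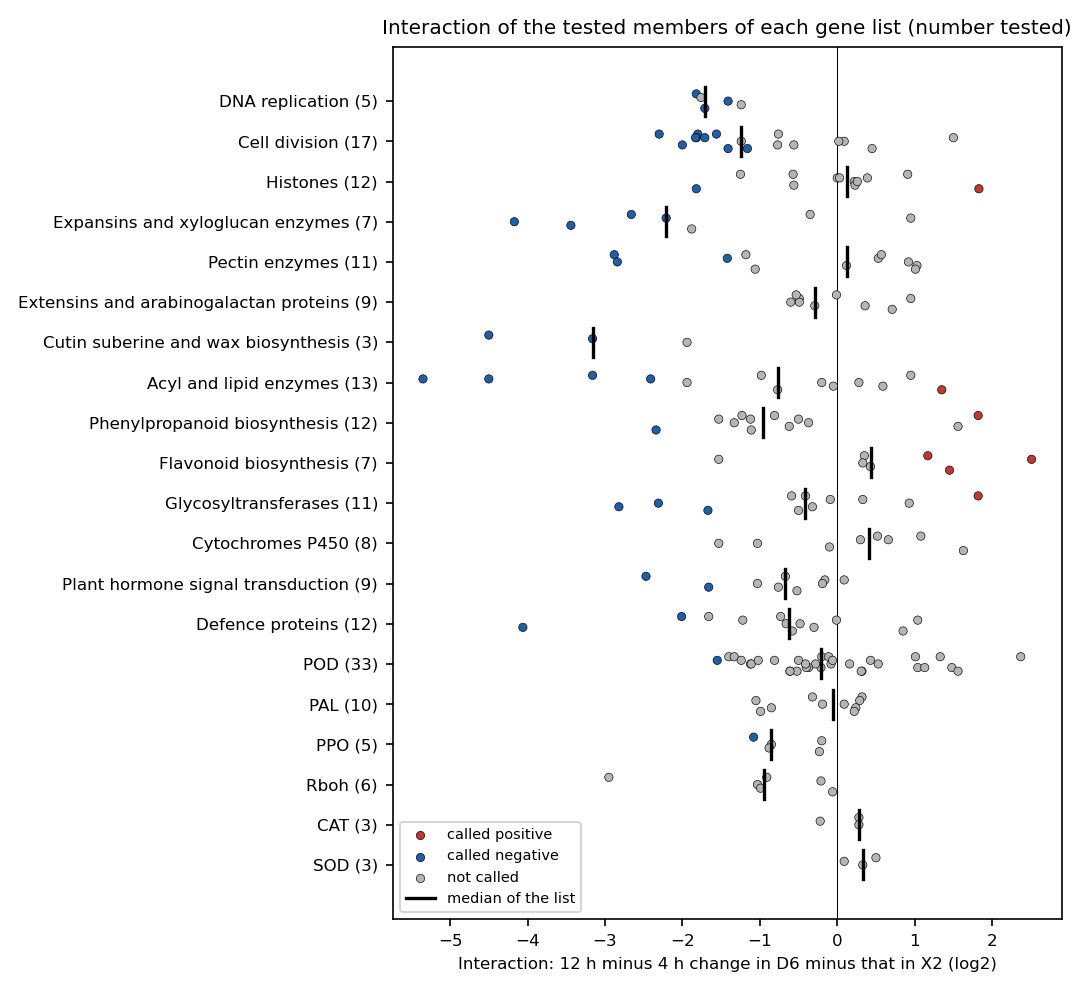
Interaction of each tested gene (points, log2 scale, horizontal axis) in the described gene lists (rows), with red (positive) and blue (negative) points for called genes, grey points for the others and a bar at the median of each list. The points of the DNA replication, cell division and expansin lists lie mostly left of 0, and those of the flavonoid list mostly right of it.

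Of 9 tested genes of plant hormone signalling, 2 had a negative interaction and 0 a positive one (median -0.67), against 4.23% and 2.44% of all genes. Indole-3-acetic acid-amido synthetase GH3.6 (PGSC0003DMG400019274), which joins auxin to amino acids, had 24.1, 31.9 and 26.2 FPKM at 12 h and 18.3, 52.5 and 26.8 FPKM at 4 h in D6, against 17.2, 8.97 and 7.16 FPKM at 12 h and 2.16, 1.71 and 2.0 FPKM at 4 h in X2. It was not called in D6 (-0.12) and rose in X2 (2.35), with an interaction of -2.47 (standard error 0.51, adjusted p = 0.0112). A gene of the Tify family (PGSC0003DMG400028800), which holds the repressors of jasmonate signalling, fell in both lines with 1.10, 0.419 and 0.364 FPKM at 12 h and 7.40, 6.58 and 9.47 FPKM at 4 h in D6, against 0.359, 0.417 and 0.303 FPKM at 12 h and 1.43, 1.46 and 2.0 FPKM at 4 h in X2. The interaction was -1.66 (standard error 0.45, adjusted p = 0.036). In 12 defence proteins, 2 were called, both negative, against 4.23% of all genes. Class II chitinase (PGSC0003DMG400001528), which cuts the chitin of fungal walls, had 10.3, 6.78 and 9.40 FPKM at 12 h and 13.7, 7.06 and 10.6 FPKM at 4 h in D6, against 12.7, 13.7 and 17.2 FPKM at 12 h and 4.63, 2.45 and 5.85 FPKM at 4 h in X2. Here the interaction was -2.01 (standard error 0.43, adjusted p = 0.0136). Osmotin (PGSC0003DMG400003057), an antifungal protein, had an interaction of -4.06 (standard error 1.06, adjusted p = 0.0307) on 45 reads in X2 at 4 h. Gibberellin 2-oxidase (PGSC0003DMG400027645), which inactivates gibberellins, had 0.236, 0.374 and 0.111 FPKM at 12 h and 2.26, 1.43 and 1.33 FPKM at 4 h in D6, against 1.68, 1.72 and 2.25 FPKM at 12 h and 1.34, 4.07 and 2.52 FPKM at 4 h in X2. It was called lower at 12 h in D6 (-2.42) and not in X2 (-0.35), and its interaction of -2.07 (standard error 0.55, adjusted p = 0.0327) was -0.82 and not called with 1 added to the FPKM.

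Of the other pathway and description lists, 7 had no limma call. None of 9 extensins and arabinogalactan proteins (median -0.29), 8 cytochromes P450 (0.41), 3 SAUR genes (-0.19), 4 zeatin genes (-0.37), 3 unsaturated fatty acid genes (0.95), 3 butanoate genes (-0.22) or 2 sesquiterpenoid and triterpenoid genes (0.81) was called by limma. Over these 7 lists, 5 of the 32 genes had an unadjusted p of at most 0.05 and limma-voom called 1. Of the 13 acyl and lipid enzymes, 4 were negative and 1 was positive (median -0.77), against 4.23% and 2.44% of all genes. With limma-voom 0 were called in either direction. The positive gene was a sphingolipid delta-8 desaturase (PGSC0003DMG400029934), which rose in D6 alone with an interaction of 1.35 (standard error 0.39, adjusted p = 0.0444). Pentose and glucuronate interconversions had 1 negative of 8 (pectate lyase P18, median 0.55), diterpenoids 1 of 3 (gibberellin 2-oxidase, median -1.17), and starch and sucrose metabolism 1 of 7 (median 0.57), a UDP-D-glucuronic acid 4-epimerase (PGSC0003DMG400004659), which makes a pectin precursor and had 1.97, 0.451 and 0.638 FPKM at 12 h and 16.8, 14.7 and 11.2 FPKM at 4 h in D6, against 0.0639, 0.364 and 0.283 FPKM at 12 h and 0.574, 0.801 and 0.956 FPKM at 4 h in X2. Beside each of these last counts stands the 4.23% of all genes with a negative interaction. Over all 65 lists, 32 had a median below 0.

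Transcription factors as a whole sat close to the background. Of 1043 tested, 57 had a negative and 31 a positive interaction (8.44% called, against 6.67% of all genes), and their median was 0.03. Of all genes tested, 4.23% were negative and 2.44% positive, and these shares hold beside every family count below. In the ethylene-response family AP2-EREBP, 9 of 72 were negative and 0 positive (median -0.29). Of the 72, 43 fell in D6, against 12.9% of all genes, and 40 fell in X2, against 9.76%. WRKY factors, which act in wound and pathogen responses, had 4 negative of 40 and 0 positive (median -0.54). The largest of them (PGSC0003DMG400017349) had 13.2, 12.6 and 16.8 FPKM at 12 h and 12.1, 21.5 and 14.3 FPKM at 4 h in D6, against 9.47, 8.15 and 8.13 FPKM at 12 h and 1.27, 1.39 and 1.75 FPKM at 4 h in X2. Its groups overlapped in D6 (-0.13) and not in X2, where it rose (2.47), and the interaction was -2.61 (standard error 0.28, adjusted p = 0.000549). NAC had 3 negative of 26 and 0 positive (median -0.30), led by PGSC0003DMG400001338, which had 5.24, 7.16 and 5.11 FPKM at 12 h and 7.19, 8.94 and 6.66 FPKM at 4 h in D6, against 3.58, 2.87 and 1.99 FPKM at 12 h and 0.758, 0.670 and 0.707 FPKM at 4 h in X2. This gave an interaction of -2.19 (standard error 0.30, adjusted p = 0.00163). MYB had 7 negative and 3 positive of 74, and bHLH 3 of each among 42. CCAAT factors had no limma call among 30, with 6 at an unadjusted p of at most 0.05 and 1 limma-voom call. Nor were there calls in the families FAR1, FHA, Jumonji, SWI/SNF-BAF60b and mTERF.

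**Figure D5:**
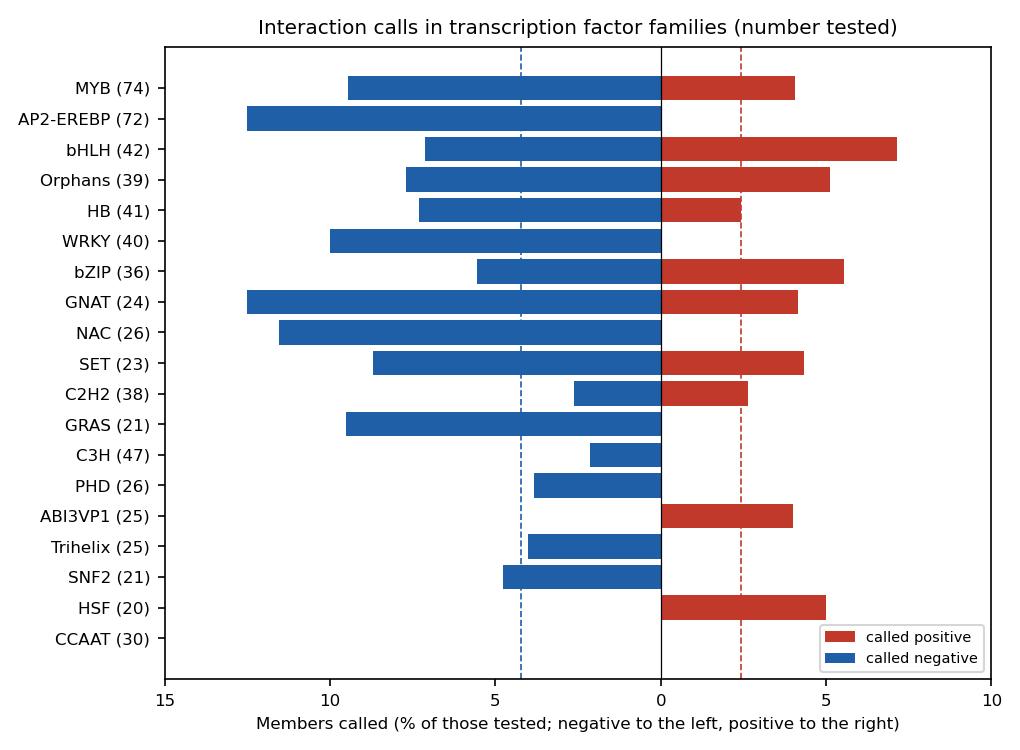
Share of tested genes with a positive and with a negative interaction (percent) in transcription factor families with at least 20 tested genes. Dashed lines mark the shares of all genes tested, 2.44% positive and 4.23% negative, and AP2-EREBP, WRKY and NAC are among the families with negative calls alone.

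Among smaller families, calls were scattered, with at most 2 of each direction in any of the families with 10 to 19 tested genes. Both calls of TCP factors, which set cell proliferation in growing organs, were positive (2 of 11 tested), and the larger was PGSC0003DMG400022738 with 1.82, 2.62 and 1.81 FPKM at 12 h and 0.189, 0.203 and 0.308 FPKM at 4 h in D6, against 1.07, 1.02 and 1.23 FPKM at 12 h and 0.593, 0.472 and 0.382 FPKM at 4 h in X2. Its interaction stood at 1.65 (standard error 0.33, adjusted p = 0.0106). The LOB family had 1 call each way. The positive one (PGSC0003DMG400027718) had 12.3, 9.14 and 9.96 FPKM at 12 h and 0.423, 0.686 and 0.129 FPKM at 4 h in D6, against 4.16, 5.66 and 9.46 FPKM at 12 h and 1.36, 2.42 and 1.42 FPKM at 4 h in X2. The resulting interaction was 2.73 (standard error 0.59, adjusted p = 0.0138), and the negative one (Novel02473) had an interaction of -2.25 (standard error 0.55, adjusted p = 0.0235). AUX/IAA, whose proteins repress auxin responses, also had 1 call each way among 12 tested (median 0.30). The positive one (PGSC0003DMG400012261) rose in D6 alone, with an interaction of 1.27 (standard error 0.31, adjusted p = 0.0233). With 1 added to the FPKM it was 0.90 and not called. The negative one (PGSC0003DMG400013765) fell in D6 with 0.0808, 0.157 and 0.0886 FPKM at 12 h and 3.08, 5.81 and 4.70 FPKM at 4 h in D6, against 0.0414, 0.0339 and 0.0285 FPKM at 12 h and 0.0960, 0.182 and 0.158 FPKM at 4 h in X2. The interaction was -3.59 (standard error 0.42, adjusted p = 0.000755). The largest negative value of all factors was in the acetyltransferase-like family GNAT (PGSC0003DMG400014499, 0.361, 2.72 and 1.46 FPKM at 12 h and 1.99, 9.76 and 4.35 FPKM at 4 h in D6, against 5.21, 2.05 and 0.930 FPKM at 12 h and 0.288, 0.301 and 0.201 FPKM at 4 h in X2, interaction -4.49 (standard error 1.03, adjusted p = 0.0181)) and the largest positive one in bZIP (PGSC0003DMG400012436, 0.268, 0.380 and 0.457 FPKM at 12 h and 0.319, 0.394 and 0.138 FPKM at 4 h in D6, against 0.275, 0.137 and 0.221 FPKM at 12 h and 3.49, 1.83 and 2.07 FPKM at 4 h in X2, interaction 3.35 (standard error 0.49, adjusted p = 0.00223)), both with a mean below 5 FPKM.

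Of the 10 described genes of at least 5 FPKM with the largest positive interaction, 9 were transcription factors known only by family, and flavonoid 3'-monooxygenase was the other. Most descriptions were of such factors: 1411 tested genes had a functional description, and 1043 tested genes were in the factor families. A majority of factors among the 10 is therefore no result about factors. In each of the 9 except 1, the lines differed at 4 h, with lower levels in D6. A gene of the Orphans family (PGSC0003DMG400029426) had 17.5, 16.4 and 19.7 FPKM at 12 h and 19.3, 13.4 and 11.8 FPKM at 4 h in D6, against 14.5, 12.6 and 10.4 FPKM at 12 h and 33.4, 40.5 and 37.8 FPKM at 4 h in X2. It fell in X2 (-1.57) and was not called in D6, where the hours overlapped, and its interaction was 1.87 (standard error 0.24, adjusted p = 0.00131). The second Orphans gene (PGSC0003DMG400027651) had 6.06, 6.39 and 6.98 FPKM at 12 h and 1.40, 1.15 and 1.42 FPKM at 4 h in D6, against 9.82, 8.86 and 9.25 FPKM at 12 h and 6.0, 5.91 and 6.10 FPKM at 4 h in X2, so that it rose in D6 (2.21) and was not called in X2, an interaction of 1.59 (standard error 0.16, adjusted p = 0.000397). A gene of the DBP family (PGSC0003DMG400030694) had 123, 110.0 and 105 FPKM at 12 h and 34.1, 48.3 and 33.5 FPKM at 4 h in D6, against 121, 115 and 111 FPKM at 12 h and 104, 123 and 118 FPKM at 4 h in X2. Its X2 hours overlapped, D6 rose (1.56), at 12 h the lines overlapped, and the interaction was 1.55 (standard error 0.18, adjusted p = 0.000773).

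Of the 2 MYB genes, MYB factors being regulators of phenylpropanoid and wall genes among other tasks, PGSC0003DMG400015536 had 10.9, 12.2 and 12.5 FPKM at 12 h and 4.83, 3.92 and 8.90 FPKM at 4 h in D6, against 22.1, 20.2 and 19.4 FPKM at 12 h and 37.5, 36.3 and 27.5 FPKM at 4 h in X2. Here the interaction was 1.79 (standard error 0.33, adjusted p = 0.00704). The other (PGSC0003DMG400009033) had 61.3, 60.5 and 51.3 FPKM at 12 h and 38.8, 46.4 and 38.0 FPKM at 4 h in D6, against 34.5, 32.4 and 27.8 FPKM at 12 h and 60.9, 66.9 and 61.3 FPKM at 4 h in X2, with neither change and neither line difference called on its own and an interaction of 1.49 (standard error 0.15, adjusted p = 0.000418). The Sigma70-like gene (PGSC0003DMG400009072), of the nuclear factors that direct transcription in plastids, had 11.0, 9.49 and 11.2 FPKM at 12 h and 6.06, 6.15 and 5.54 FPKM at 4 h in D6, against 10.9, 10.3 and 8.95 FPKM at 12 h and 16.2, 21.6 and 21.1 FPKM at 4 h in X2, again with neither change called, and an interaction of 1.77 (standard error 0.18, adjusted p = 0.000397). Every D6 library was higher at 12 h than at 4 h, and every X2 library was lower at 12 h.

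Both TAZ zinc finger genes were lower in D6 at 4 h. The first (PGSC0003DMG400015229) had 19.5, 12.0 and 12.1 FPKM at 12 h and 11.4, 12.1 and 9.62 FPKM at 4 h in D6, against 14.8, 18.1 and 17.3 FPKM at 12 h and 32.7, 51.5 and 46.6 FPKM at 4 h in X2, was called lower at 12 h in X2 (-1.36) alone and had an interaction of 1.72 (standard error 0.29, adjusted p = 0.00406). The second (PGSC0003DMG401026984) had 71.5, 42.5 and 38.1 FPKM at 12 h and 28.2, 35.5 and 24.2 FPKM at 4 h in D6, against 58.2, 54.8 and 63.3 FPKM at 12 h and 71.7, 108 and 111 FPKM at 4 h in X2. Neither of its changes was called (0.75 in D6 and -0.70 in X2), and they gave an interaction of 1.45 (standard error 0.33, adjusted p = 0.0171). A G2-like gene (PGSC0003DMG400021857) had 3.81, 4.83 and 9.07 FPKM at 12 h and 0.238, 0.386 and 0.113 FPKM at 4 h in D6, against 25.9, 19.5 and 23.3 FPKM at 12 h and 3.09, 4.08 and 6.16 FPKM at 4 h in X2, rising in both lines with every X2 library above every D6 library at the same hour. Its interaction was 1.72 (standard error 0.51, adjusted p = 0.0487), and its call was lost in 11 of 22 alternative settings, among them those without D6 at 12 h replicate 3, D6 at 4 h replicates 1 and 3, X2 at 12 h replicates 2 and 3 or X2 at 4 h replicates 2 and 3 (between 1.36 and 2.0 with 1 library left out). With 1 added to the FPKM it was 0.24, and the fit of all libraries, the replicate block and limma-voom lost the call too. At 24 h, D6 and X2 differed for PGSC0003DMG400015536 and PGSC0003DMG401026984 among these 10 positive genes, both lower in D6. Among the 10 negative genes, 3 were higher in D6 at 24 h (the RING-type zinc finger, the xyloglucanase inhibitor and the polygalacturonase PGSC0003DMG400013516) and Expansin11 was lower.

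Some of the largest values belonged to genes silent in a whole group. Of the 1322 called genes, 63 had 0 reads in every library of at least 1 of the 4 groups (38 with a negative and 25 with a positive interaction), against 217 of all genes tested. For such genes the fitted value depends on the constant added to the FPKM and is no measure of fold change. Anthocyanin acyltransferase (PGSC0003DMG400018014), which adds acyl groups to anthocyanin pigments, had 0 reads in all D6 libraries at 4 and 12 h, while X2 had 22.5, 11.2 and 14.1 FPKM at 12 h and 0.426, 0.269 and 0.178 FPKM at 4 h. For this gene, 3 reads would have been 0.0358 to 0.0398 FPKM in D6 at 12 h and 0.0415 to 0.0511 FPKM at 4 h. It rose by 5.35 in X2. The undescribed PGSC0003DMG400018015 had the same arrangement, with 0 reads in D6 and 10.2, 28.9 and 33.0 FPKM at 12 h and 1.81, 1.16 and 0.840 FPKM at 4 h in X2.

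The remaining undescribed genes printed here had other patterns. PGSC0003DMG400002093 had 0.831, 3.65 and 0.806 FPKM at 12 h and 13, 40.4 and 13.2 FPKM at 4 h in D6, against 1 read at 12 h and 0 reads at 4 h over the X2 libraries. The predicted gene Novel03267 (chromosome 8, 4301367 to 4302327, minus strand, in the build SolTub_3.0 named in the study's methods) had 1.08, 5.38 and 8.56 FPKM at 12 h and 0 reads at 4 h in D6, against 8.59, 7.34 and 22.2 FPKM at 12 h and 13.9, 32.8 and 10.3 FPKM at 4 h in X2. PGSC0003DMG400010117 had 1.17, 0.465 and 0.748 FPKM at 12 h and 2.17, 1.84 and 1.69 FPKM at 4 h in D6, against 0.442, 0.472 and 1.20 FPKM at 12 h and 36.2, 20.3 and 16.3 FPKM at 4 h in X2, falling in both lines with its lone high group in X2 at 4 h, and an interaction of 3.73 (standard error 0.56, adjusted p = 0.00246). In all, 470 of the 541 genes that passed the level and adjusted p conditions had no functional description. Predicted genes made up 14.4% of all genes tested, 14.5% of the positive and 10.9% of the negative interactions.

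The calls of some genes named above depended on the setting. With limma-voom they were lost for the polygalacturonase PGSC0003DMG400013516, the lipid-transfer protein, the sterol desaturase PGSC0003DMG401023841, both chalcone synthases, PGSC0003DMG400009411, the called histone H4, the cyclin-A3-1-like gene, subunit 6 and the minichromosome maintenance protein 10. They were also lost there for the sphingolipid delta-8 desaturase, the UDP-D-glucuronic acid 4-epimerase, anthocyanin acyltransferase, PGSC0003DMG400018015 and PGSC0003DMG400002093. With 0.01 added to the FPKM the calls of the sterol desaturase, PGSC0003DMG400009411, the histone H4, the epimerase, the cyclin-A3-1-like gene and subunit 6 were lost. With 1 added, those of the lipid-transfer protein (-1.37), sinapyl alcohol dehydrogenase 2 (-1.09), PGSC0003DMG400011972 (-0.79), subunit 4 (-0.97), cyclin A, the sphingolipid desaturase (0.71) and the TCP gene (0.80) were lost, and phloem protein 2 (-1.11), cdt2 (-1.19), osmotin (-1.91) and the bZIP gene (1.58) kept smaller values. The fit of all 21 libraries lost the calls of the polyphenol oxidase, pectate lyase P18, the minichromosome maintenance protein 10, chalcone synthase 1B (PGSC0003DMG400029620) and Novel03267, size factors that of the same chalcone synthase, and the replicate block those of anthocyanidin 3-O-glucosyltransferase 5 and subunit 6.

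Other calls depended on single libraries. That of Tify was lost without D6 at 4 h replicate 3 (between -2.09 and -1.41 with 1 library left out), and that of the polyphenol oxidase without D6 at 4 h replicates 2 and 3, X2 at 12 h replicate 3 or X2 at 4 h replicate 2 (between -1.27 and -0.90 with 1 library left out). Sinapyl alcohol dehydrogenase 2 was no longer called without D6 at 12 h replicates 1 and 3, D6 at 4 h replicates 2 and 3, X2 at 12 h replicates 1, 2 and 3 or X2 at 4 h replicates 2 and 3 (between -3.02 and -1.89 with 1 library left out), and anthocyanidin 3-O-glucosyltransferase 5 without D6 at 12 h replicate 2, D6 at 4 h replicate 2, X2 at 12 h replicate 2 or X2 at 4 h replicate 2 (between 1.47 and 2.10 with 1 library left out). Among cell division genes, the call was lost for the minichromosome maintenance protein 10 without D6 at 12 h replicate 2, D6 at 4 h replicate 3, X2 at 12 h replicate 3 or X2 at 4 h replicates 2 and 3 (between -1.38 and -0.91 with 1 library left out), for the cyclin-A3-1-like gene without D6 at 12 h replicates 2 and 3, D6 at 4 h replicate 1, X2 at 12 h replicates 2 and 3 or X2 at 4 h replicate 3 (between -2.07 and -1.40 with 1 library left out), and for subunit 6 of the origin recognition complex without D6 at 12 h replicates 2 and 3, D6 at 4 h replicates 2 and 3, X2 at 12 h replicates 1, 2 and 3 or X2 at 4 h replicates 2 and 3 (between -2.47 and -1.69 with 1 library left out). With 1 library left out, 6 to 10 genes of the cell division list were called negative and 0 or 1 positive. The sphingolipid delta-8 desaturase was not called without D6 at 12 h replicates 2 and 3, D6 at 4 h replicate 1, X2 at 12 h replicate 1 or X2 at 4 h replicate 1 (between 1.20 and 1.61 with 1 library left out) and the UDP-D-glucuronic acid 4-epimerase without D6 at 12 h replicates 2 and 3, D6 at 4 h replicate 1, X2 at 12 h replicates 2 and 3 or X2 at 4 h replicate 1 (between -2.99 and -2.03 with 1 library left out).

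The called genes were lower in level than the rest. A mean of at least 5 FPKM was reached by 58.6% of all genes tested, 42.8% of the positive and 45.5% of the negative interactions. No tested storage or green tissue marker had a called interaction. The 3 described storage markers summed to 6.24 to 29.6 FPKM at 12 h and 12.7 to 22.1 FPKM at 4 h in D6, and to 1.19 to 2.16 FPKM at 12 h and 2.83 to 6.08 FPKM at 4 h in X2. In every group but X2 at 4 h, 1 of the 3 averaged under 0.1 FPKM. Of the 3 storage markers, only Proteinase inhibitor IIa (PGSC0003DMG400030593) was called higher in D6, at 4 h (2.76) and at 12 h (3.61). Patatin was called at neither hour (0.64 and 1.84), and PGSC0003DMG400004548 had 0 reads in D6 and 36 in X2 at 4 h. Proteinase inhibitor IIa was nearly absent at 0 h (0.0652 FPKM in the D6 library, 0.0325, 0.0230 and 0 FPKM in X2), so it did not mark uncut storage tissue here. The 3 green tissue markers summed to 9.23 to 20.5 FPKM at 12 h and 1.77 to 2.52 FPKM at 4 h in D6. In X2 they summed to 7.03 to 15.4 FPKM at 12 h and 0.936 to 3.41 FPKM at 4 h. These sums overlapped between the lines at both hours. Chlorophyll a/b-binding protein (PGSC0003DMG400007375) was called higher in D6 at 12 h (1.96) and not at 4 h. It had 1.75, 4.75 and 7.07 FPKM at 12 h in D6, against 1.08, 0.561 and 1.30 FPKM in X2. PGSC0003DMG400017556 was called at neither hour (-0.19 at 4 h and 0.01 at 12 h). PGSC0003DMG400017848 averaged under 0.1 FPKM at 12 h in both lines and was not among the genes tested. The part of the green tissue markers in the results was not tested. Nothing in the labels gives a batch, and line and any unrecorded difference in handling of the tubers cannot be told apart.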

How the data were processed

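RNA-Seq levels were taken from the FPKM table deposited by the authors, with 1 column per library. The study's methods name HISAT, the potato genome SolTub_3.0 and featureCounts v1.5.0-p3 for the X2 libraries, and FPKM from gene length and mapped reads. Per the labels, the submitters' processing notes name CASAVA 1.8, Bowtie 0.12.2 and a mouse build (mm8), which cannot describe this table. Whether counting used strand is not given in the sources used here. The table names 1 column (X2 at 4 h, replicate 2) more than once, and the first was used, so 1 column of library values stayed out. Replicate numbers come from the columns.

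From the FPKM values, log2(FPKM + 0.1) was fitted with limma 3.58.1 in R 4.3.3 (lmFit, eBayes with trend) as a means model over D6 and X2 at 12 h and 4 h, 3 libraries each, after a filter at a mean of 0.5 FPKM. Calls needed an absolute log2 difference of at least 1 and p of at most 0.01, thresholds of the study's methods, and p-values were adjusted by Benjamini and Hochberg over the 19812 genes tested. No source says whether the D6 replicates came from separate tubers, so its p-values measure the spread between these samples, which may be technical. D6 against X2 at 24 h came from a fit of all 21 libraries, chosen after seeing the data. The main fit was tried first on simulated libraries with known interactions. The alternative fits and the fit of all 21 libraries were not.

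The FPKM values were whole multiples of 1 read for 23695 of the 23704 genes tried (within 0.05 read), so reads were recovered. The 12 libraries held 24226307 to 44921591 reads on genes, and 3 reads on a gene of 1 kb were 0.0668 to 0.124 FPKM. Reads given are these recovered reads and cover counting error only.

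Named genes were, in each direction, the 10 largest interactions with an adjusted p of at most 0.05, a mean of at least 5 FPKM and a functional description, up to 5 called in opposite directions in the lines, up to 2 without a description, the largest call of each list, and every tested gene for PAL, PPO, CAT, SOD and Rboh. Lists were the study's enzyme table, its transcription factor families of 10 or more genes, its pathways and keywords in its descriptions. The comparison, its genes and the lists were chosen with earlier results of these data known. Other called list members were named after their values were seen. Gene identifiers were paired with descriptions by the study's tables (1842 genes), and 0 identifiers matched the RefSeq table, so positions of PGSC genes and sequences are not analysed here. The authors' own comparisons were not used.

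Alternatives were other scaling, filters, constants, thresholds and libraries in the fit, the replicate number as a block, limma-voom on recovered reads, and leaving out each library in turn.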

Additional observations from a re-analysis of the deposited data

Results flagged for a closer look

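The interaction is itself a test of whether the change between 4 and 12 h differed between the lines, and 1322 genes passed it. Of these, 16 were called in opposite directions in D6 and X2, a number that was 5 with 1 added to the FPKM or a log2 threshold of 1.5 and 31 at an adjusted p of at most 0.05.

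Among the described genes averaging at least 5 FPKM, the largest positive interactions (limma, log2 scale) were 1.87 for PGSC0003DMG400029426 (Orphans family), 1.79 for PGSC0003DMG400015536 (MYB), 1.77 for PGSC0003DMG400009072 (Sigma70-like), 1.72 for PGSC0003DMG400015229 (TAZ) and 1.72 for PGSC0003DMG400021857 (G2-like). They were 1.59 for PGSC0003DMG400027651 (Orphans family), 1.55 for PGSC0003DMG400030694 (DBP), 1.49 for PGSC0003DMG400009033 (MYB), 1.45 for PGSC0003DMG401026984 (TAZ) and 1.45 for flavonoid 3'-monooxygenase.

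In the same set of genes, the largest negative interactions were -4.50 for acyl CoA reductase, -4.32 for the RING-type zinc finger, -4.17 for the xyloglucanase inhibitor, -3.60 for GRP 2 and -3.44 for Expansin11. Those of protein RSI-1, laccase, polygalacturonase QRT3, the polygalacturonase PGSC0003DMG400013516 and phloem protein 2 were -2.94, -2.90, -2.88, -2.84 and -2.78. The HB gene PGSC0003DMG400026264, called lower at 12 h in D6 and higher at 12 h in X2, had -2.12. No cause of these differences was tested.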

How the results depend on the processing

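No called interaction of a named gene changed sign under any alternative tried, and over the 5 comparisons 309 of 330 counts stayed within 1.5 times the count in FPKM. With a log2 threshold of 1.5, which by construction keeps fewer genes, the interaction had 653 calls (199 positive, 454 negative), D6 at 12 h against 4 h 3081 (1777 positive, 1304 negative), X2 at 12 h against 4 h 2319 (1536 positive, 783 negative), D6 against X2 at 12 h 1484 (806 positive, 678 negative) and D6 against X2 at 4 h 2135 (818 negative). With 1 in place of 0.1 added to the FPKM, positive interactions numbered 294, genes lower at 12 h in X2 1250, calls between D6 and X2 at 12 h 1450 (778 positive, 672 negative) and at 4 h 2278 (934 negative). The cause was not tested beyond the construction of these settings, a larger constant shrinking the change of low genes. Scaling by size factors gave 408 positive and 945 negative interactions and limma-voom 354 and 788.

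With 1 library left out, the interaction had 1120 to 1472 calls (398 to 621 positive, 705 to 951 negative), and between 78.9% and 85.8% of the 1322 genes were called. With 1 added to the FPKM 61.3% of them were called, with limma-voom 76.6% and with size factors 93.9%. Of 95 named genes with a call, 72 kept it without any 1 library and 39 under every alternative.

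Among interactions that were not called, the sign turned for polyphenol oxidase PGSC0003DMG400018917 (-0.85 in the main setting, 0.07 with 1 added to the FPKM) and phenylalanine ammonia-lyase PGSC0003DMG400019386 (-0.19, then 0.07). It also turned with 1 D6 library left out for catalase isozyme 3 (between -0.38 and 0.02 with 1 library left out, 0.02 without 12 h replicate 2), PGSC0003DMG400018916 (between -0.66 and 0.28, with 0.28 without 4 h replicate 3), PGSC0003DMG400029576 (between -0.57 and 0.03, with 0.03 without 4 h replicate 2 and 0.02 without 12 h replicate 1) and the oxidase PGSC0003DMG400014168 (between -0.24 and 0.14, with 0.14 without 4 h replicate 3 and 0.01 without 12 h replicate 2). The cause was not tested.

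No source says whether libraries of the same replicate number share tubers. Between 12 h and 4 h, same-numbered libraries deviated from their group means with r = 0.28, 0.03 and 0.11 in D6 and 0.10, 0.03 and 0.14 in X2. Libraries of different numbers had r between -0.20 and 0.13 in D6 and between -0.14 and 0.06 in X2. A weak pairing of the samples was therefore not excluded. With the number as a replicate block within each line, 1379 genes had an interaction, 475 positive and 904 negative.

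Depth limits low genes: where a group held 3 reads or fewer in all, the text prints no interaction value.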
